A study of Mus musculus with 10 samples.

Results

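The stretch of mouse chromosome 11 that holds Irf1 and the type 2 cytokine genes was described in Hi-C data from bone marrow-derived macrophages (BMDMs). Hi-C crosslinks nuclei, ligates DNA ends that lie close together and sequences the junctions. A loop here is 1 line of a loop list, which is a pair of 10 kb bins with the whole-number count of contacts between them. The 9 genes Kif3a, Il4, Il13, Rad50, Il5, Irf1, Slc22a5, Slc22a21 and Slc22a4 were taken by name from 21728 protein-coding genes of GENCODE M21. A loop belonged to the locus when either anchor bin overlapped the 100 kb on each side of the transcription start site (TSS) of 1 of these genes. In GRCm38 coordinates those windows ran from chr11:53460001-54130000, a span of 670 kb.

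The cells came from wild type female C57BL/6 mice aged 2 to 3 months and were differentiated in M-CSF at 20 ng/ml, so that every group carried M-CSF. M0[CTR] cells were untreated, and for M2[IL-4] the cells were kept 24 h with IL-4 (20 ng/ml). M2p[pIL-4] cells were primed with the same dose of IL-4 over 24 h, washed and rested during a further 24 h. Interferon gamma (20 ng/ml, 3 h) was given without priming in the IFNG group, and after priming and rest in the pIL-4 + IFNG group. When the unprimed cells were collected is not given in the sources used here, so any difference in time in culture cannot be told apart from priming. Each group had 2 replicates and 1 loop list, and no value per replicate was analysed here. Intervals below cover counting error only, and each test compares lists, not conditions.

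Irf1 encodes a transcription factor that macrophages make in response to IFNG, and it carries the response on to further genes. Il4, Il13 and Il5 encode the cytokines of type 2 immunity. They are best known from T helper cells, where control elements in the Rad50 gene act on them, and IL-4 is also the agent used to prime these macrophages. Rad50 itself encodes a DNA repair protein and Kif3a a kinesin motor subunit of cilia. The neighbours Slc22a4, Slc22a5 and Slc22a21 encode organic cation and carnitine transporters. Loops often end where CTCF, a DNA-binding protein, stops cohesin on motifs that point toward each other.

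The letters of the anchors were read to show what lies in the bins that the results turn on. A 14-base core of the CTCF motif was searched on both strands with up to 1 mismatch. Such a match was held by 26.1% of the 11876 bins of the chromosome, by 35.2% of its 5275 anchor bins, and by 23 of the 75 anchor bins of the locus (30.7%). Exact matches were held by 3.81% of the bins of the chromosome and by 4 of the 75 anchor bins (5.33%). The lines below give 7 of the matches in the bins joined by loops that all 5 lists called. The match is in capitals with 8 flanking bases on each side, written 5′ to 3′ on the strand of the match.
Upstream of Irf1, minus strand, exact, chr11:53737303-53737316: catatcagCCACCAGGGGGCGGtgttggat
Upstream of Irf1, plus strand, exact, chr11:53737795-53737808: acaacatgCCACTAGAGGGCACcatgtcgg
Downstream of Irf1, minus strand, 1 mismatch, chr11:53850104-53850117: atgtctggCCTGCAGGTGGCAGcatgcccc
In Slc22a5, minus strand, exact, chr11:53874861-53874874: tgtcatatCCAGTAGAGGGCAGcagtagcc
In Slc22a4, plus strand, 1 mismatch, chr11:54002871-54002884: ctcgtgaaACACCAGAGGGCACtgctgtgc
At Pdlim4, minus strand, 1 mismatch, chr11:54054439-54054452: tcctcctcCCACTAGGGGGCAAgcttgact
At Sowaha, plus strand, exact, chr11:53470085-53470098: atacaccgCCAGCAGATGGCACtgttccct
The plus-strand match upstream of Irf1 and the minus-strand matches downstream of it and in Slc22a5 pointed toward each other, and so did the matches in Slc22a4 and at Pdlim4. Further matches in such bins are not printed. Those in the bin upstream of Irf1 lay on the minus strand, which points away from Irf1. The bins chr11:53460001-53470000 and chr11:53580001-53590000, joined in all 5 lists, held matches on the plus strand only. A match is a description of letters, and binding of CTCF was not measured here.

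Promoters were read from RefSeq (GRCm38.p6) as the 250 bases before each start, which were found for 7 of the 9 genes, and not for Rad50 and Slc22a21. They are shown for Irf1 and Il4 because, of the 9 TSS bins, these were the ones with loops in every list without IFNG and in neither IFNG list. The GAS motif TTCNNNGAA takes its name from the interferon gamma-activated site and was in 7.02% of 32851 promoters searched in the same way on both strands. The STAT6 motif TTCNNNNGAA was in 5.85% and the ISRE-like motif GAAANNGAAA in 2.98% of them. In capitals are the GAS match of Irf1, 90 bases before its start, and the STAT6 match of Il4, which begins 167 bases before its start.
Irf1, plus strand, chr11:53769764-53770013: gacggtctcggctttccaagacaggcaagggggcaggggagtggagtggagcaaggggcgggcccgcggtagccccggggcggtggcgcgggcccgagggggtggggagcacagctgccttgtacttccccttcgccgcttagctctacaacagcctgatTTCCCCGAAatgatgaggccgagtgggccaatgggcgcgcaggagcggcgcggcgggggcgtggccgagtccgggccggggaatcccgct
Il4, minus strand, chr11:53618666-53618915: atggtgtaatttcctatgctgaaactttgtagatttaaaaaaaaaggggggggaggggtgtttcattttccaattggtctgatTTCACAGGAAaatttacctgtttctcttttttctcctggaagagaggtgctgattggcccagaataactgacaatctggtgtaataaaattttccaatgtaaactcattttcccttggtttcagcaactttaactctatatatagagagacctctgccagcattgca
The Il4 promoter also held an ISRE-like match, TTTCATTTTC, which begins 190 bases before the start. None of the 3 motifs was found before the starts of Kif3a, Il13, Il5, Slc22a5 and Slc22a4. RefSeq gave a further start for Irf1 and for Il4, and none of the 3 motifs was found before either. Those stretches are chr11:53770223-53770472 for Irf1, inside its TSS bin, and chr11:53617339-53617588 for Il4. The Irf1 TSS is base 14 of its bin, so nearly all of the promoter printed above lies in the bin before it.

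The locus held 70 loops of 53423 in the M0[CTR] list, 81 of 58259 in M2[IL-4] and 99 of 67727 in M2p[pIL-4]. It held 61 of 55011 in the IFNG list and 73 of 66999 in pIL-4 + IFNG. As a share of its list, that was 0.131, 0.139 and 0.146% without IFNG, against 0.111 and 0.109% with it, so that both lists of IFNG-treated cells held the fewest in proportion. The lists themselves differed in length, and total contacts ran from 2174840 in M0[CTR] to 2786962 in M2p[pIL-4]. Loops of the locus had a median of 39 to 43 contacts per list, against 32 over each whole list, and a median span of 110 to 130 kb. All lists together called 176 distinct bin pairs here, of 153263 in the genome. All 5 lists called 21 of these (11.9%), against 9.18% of all bin pairs, and 84 (47.7%) were called by 1 list, against 55.5%.

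**Figure D1:**
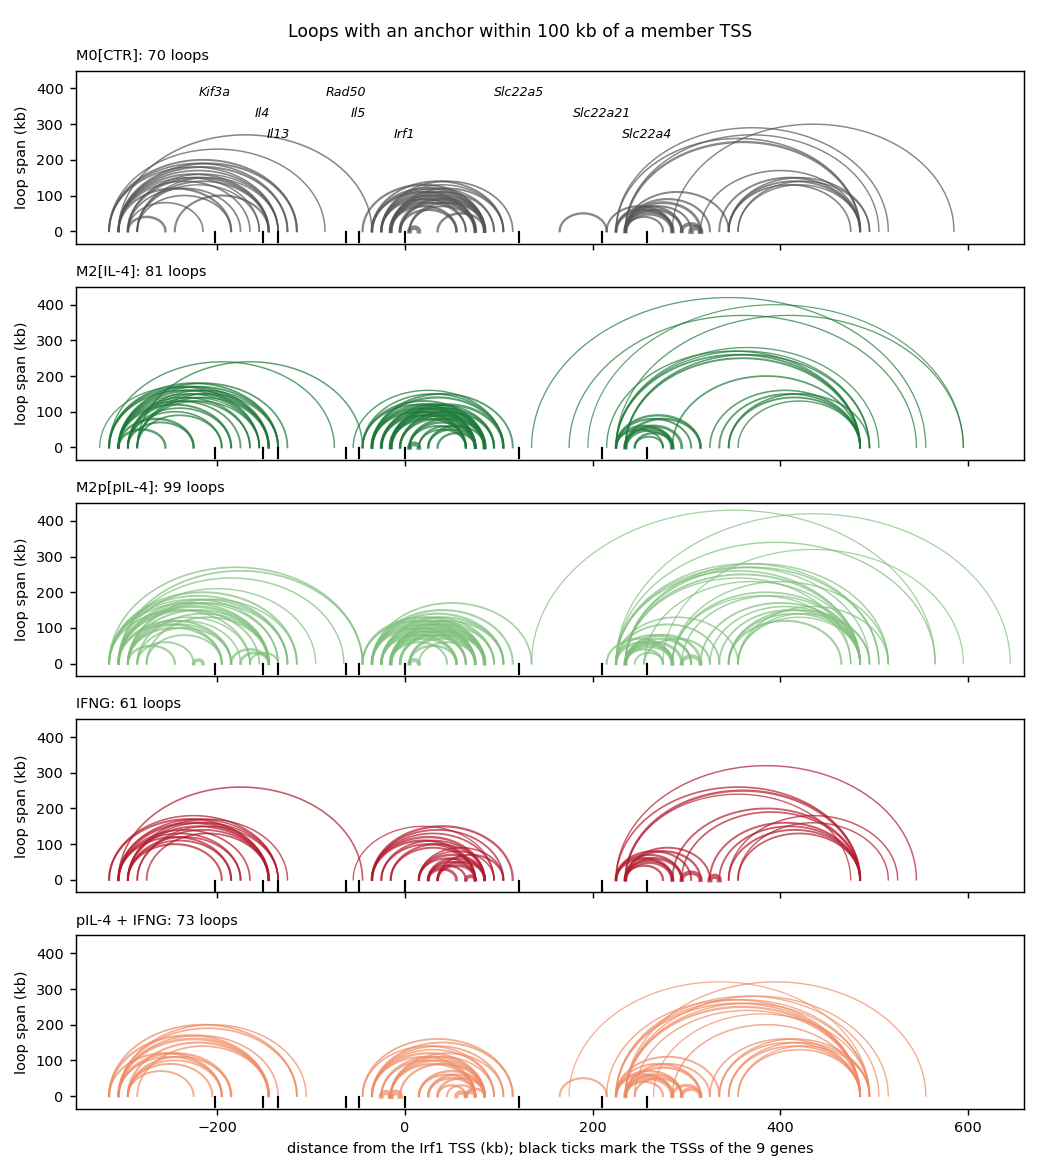
Loops of the locus in each of the 5 lists. Each arc joins the centres of the anchor bins, placed by distance from the Irf1 TSS in kb, its height is the span in kb, and thicker lines hold more contacts; black ticks mark the 9 TSSs. The arcs fall into 3 stretches in every list, and no arc runs from left of the Rad50 start to right of the Irf1 bin. From the bin before the Il5 TSS bin, 1 arc in M2[IL-4] and 1 in IFNG do so.

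The loops fell into 3 stretches, divided here by the midpoint of the loop at the Il5 and Slc22a5 TSS bins. The cytokine stretch (Kif3a, Il4, Il13, Rad50) held 22, 26, 32, 17 and 15 loops, in the order used for every run of 5 values below, which is M0[CTR], M2[IL-4], M2p[pIL-4], IFNG and then pIL-4 + IFNG. The Irf1 stretch, from Il5 to Slc22a5, held 23, 30, 29, 22 and 26 loops, and the Slc22a stretch beyond held 25, 25, 38, 22 and 32. In no list did a loop run from left of the Rad50 TSS bin to the right of the Irf1 TSS bin, or from left of the Slc22a5 TSS bin to Slc22a21 or beyond. The divide at Il5 was less clean. From chr11:53710001-53720000, the bin before the Il5 TSS bin, 1 loop ran beyond Irf1 in M2[IL-4] (24 contacts) and 1 in IFNG (20 contacts). A bin pair joining the TSS bins of 2 of the 9 genes was called in no list. No loop between the Irf1 start and the start of a cytokine gene was thus detectable in these lists.

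In the cytokine stretch the main loops joined bins at Shroom1 and Sowaha, which lie upstream of Kif3a, to the bin between Il4 and Il13 (chr11:53620001-53630000). The bin pair chr11:53460001-53470000 with that bin held 41, 52, 73, 68 and 63 contacts. M2p[pIL-4] exceeded M0[CTR] there by 0.79 on the log2 scale (95% interval 0.22 to 1.38), with an adjusted p of 1 in the exact binomial test over all bin pairs. The next bin pair along, chr11:53470001-53480000 with the same bin, held 57, 46, 43, 44 and 47 contacts. Its first bin holds the exact CTCF match shown above as at Sowaha. That match lies outside the gene (chr11:53476573-53480274), in a bin that overlaps it. The intergenic bin summed 184, 188, 359, 229 and 196 contacts over 4, 4, 7, 5 and 4 loops. Its highest sum was in primed cells before IFNG, whose list is the longest, and no CTCF match was found in this bin. Over the bin pairs that M2p[pIL-4] and M0[CTR] both called, it summed 152 against 137 contacts (log2 0.11, 95% interval -0.23 to 0.45).

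At the TSS bin of Il4, 2, 5, 1, 0 and 0 loops were called, holding 51, 123, 38, 0 and 0 contacts. Its best partner was the Shroom1 bin (chr11:53460001-53470000) in all 3 lists without IFNG, with 26, 29 and 38 contacts. The M2[IL-4] list held the most loops at the Il4 start, and neither list of IFNG-treated cells held any. How often TSS bins with so few loops hold none in both IFNG lists was not counted over the genome, and the pattern was not tested. Il13, whose cytokine acts through a shared receptor chain with IL-4, had 4, 4, 3, 4 and 1 loops at its TSS bin with 108, 127, 104, 107 and 32 contacts. Its bin pair with the Shroom1 bin was called in every list, with 33, 40, 33, 29 and 32 contacts, and the 95% Poisson intervals of these counts overlapped. In M2p[pIL-4] its best partner was chr11:53600001-53610000, a bin in Kif3a and Il4, with 45 contacts. Kif3a had 1 loop at its TSS bin, of 43 contacts with the Sowaha bin (chr11:53470001-53480000) in pIL-4 + IFNG. Rad50 also had 1, of 28 contacts with the Shroom1 bin in M2p[pIL-4].

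Il5 encodes the growth and survival factor of eosinophils, and its TSS bin had loops to both sides. It held 1, 4, 4, 1 and 2 loops with 51, 137, 150, 31 and 66 contacts. In the 3 lists without IFNG its best partner was chr11:53850001-53860000, on the far side of Irf1, with 51, 41 and 46 contacts. Neither IFNG list called that bin pair. Toward Kif3a it was joined to the Shroom1 bin with 35 contacts in M2p[pIL-4] and 31 in IFNG, where this was its only loop. In M2p[pIL-4] it was also joined to chr11:53450001-53460000 with 32 contacts, and in M2[IL-4] to chr11:53480001-53490000 at Sowaha with 26. In pIL-4 + IFNG its best partner was chr11:53880001-53890000 in Slc22a5, with 38 contacts.

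The loops that crossed Irf1 ended mostly in 2 neighbouring bins, chr11:53840001-53850000 and chr11:53850001-53860000. Both lie in the predicted gene Gm12216, which runs on the minus strand from a TSS at 53859256, inside the second bin. The partner bins and the comparison that follows were picked after their values were seen, so they carry no test. From the 6 bins between the Il5 and Irf1 starts, both included, 12 bin pairs with them are possible. Of these, 11, 12 and 12 were called without IFNG, with 720, 775 and 719 contacts, against 6 and 7 in IFNG and pIL-4 + IFNG, with 273 and 333 contacts. Both IFNG lists thus lay below the other lists in loops and called contacts between these 6 bins and the 2 partner bins. This did not hold for all loops of these bins. Over all its loops of the locus, chr11:53750001-53760000 held 391, 363, 423, 85 and 489 contacts, with pIL-4 + IFNG the highest. In that list, loops to touching bins held 148 and 168 of them.

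From the 6 bins beyond the Irf1 TSS bin up to the partners, the order was the opposite. Of the 12 bin pairs possible there, 1, 4 and 1 were called without IFNG, holding 59, 201 and 40 contacts. In the IFNG list 7 were called with 452 contacts, and in pIL-4 + IFNG 8 with 500. The bin just past the Irf1 TSS bin, chr11:53780001-53790000, held, with the second partner bin, 61 contacts in IFNG and 55 in pIL-4 + IFNG, a bin pair that no other list called. Part of the sums beyond Irf1 came from touching bins: chr11:53830001-53840000 with the first partner bin held 102 and 95 contacts in the IFNG lists. A bin pair that a list does not call has no deposited value, so not called does not mean 0 contacts.

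**Figure D2:**
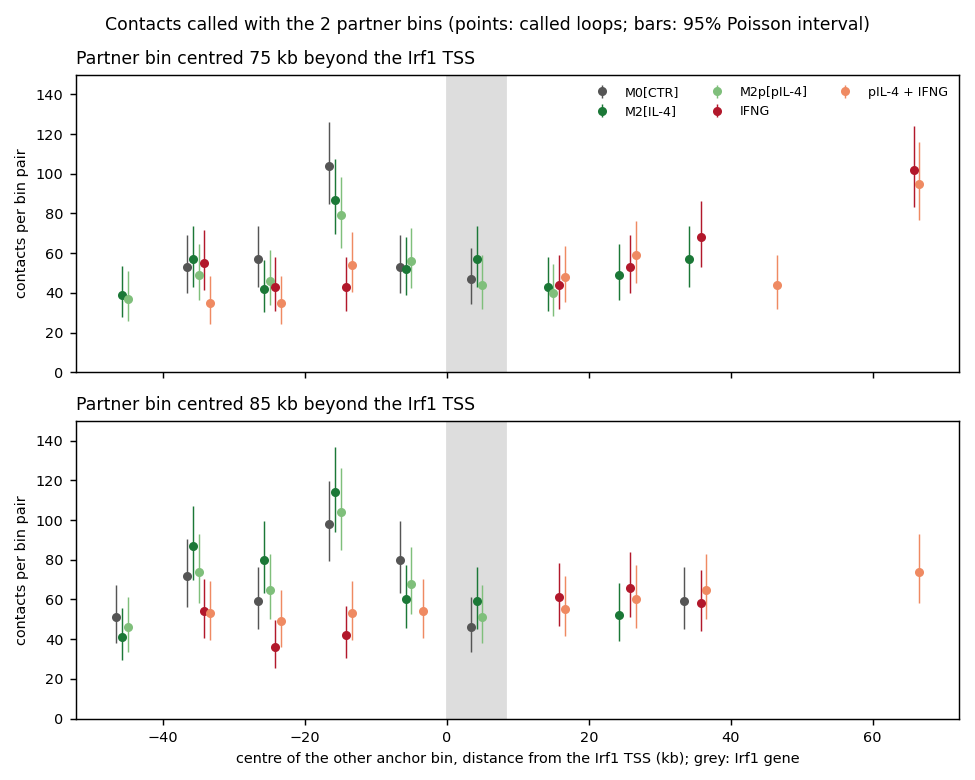
Contacts called between the 2 partner bins (upper and lower panel) and each bin around Irf1, by list. The x axis is the centre of the other anchor bin in kb from the Irf1 TSS, the y axis contacts per bin pair, points are called loops with 95% Poisson intervals, and grey marks the Irf1 gene. Left of Irf1 the grey and green points of the lists without IFNG peak at 79 to 114 contacts at the bin 15 kb before the TSS, where the IFNG points hold 42 to 54.

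The Irf1 TSS bin itself lost every called loop with IFNG. It held 3, 4, 4, 0 and 0 loops, with 223, 288, 268, 0 and 0 contacts. Its strongest loop was to the touching bin downstream, chr11:53780001-53790000, with 130, 133 and 117 contacts in the 3 lists without IFNG. Its bin pairs with the 2 partner bins held 44 and 51 contacts in M2p[pIL-4], 57 and 59 in M2[IL-4], and 47 and 46 in M0[CTR]. All 3 lists without IFNG called these loops and neither IFNG list did. The bin is shared with the predicted gene Gm17334.

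How often a start loses all its loops was counted in the same way over the genome, by a rule set after the Irf1 values were seen. Of 2649 TSS bins with 3 or more loops in M0[CTR], 86 (3.25%) held none in IFNG. Of 3259 such bins in M2p[pIL-4], 83 (2.55%) held none in pIL-4 + IFNG. Both together were met by 3 of 2213 bins (0.136%), which are those of Irf1, Gpr183 and Prdm10. Gpr183 encodes an oxysterol receptor of immune cells and Prdm10 a zinc finger protein. For scale, the weakest loops called at a span of 70 kb held 22 contacts in IFNG and 17 in pIL-4 + IFNG, and the 5th percentile was 33 and 32 contacts. At 80 kb these were 21 and 20 contacts, with 32 and 30 at the 5th percentile. The 44 to 59 contacts that the other lists held between the Irf1 start and the partner bins lay above these values. They lay around the medians, which were 50 and 48 contacts at 70 kb and 47 and 45 at 80 kb. At 10 kb, the span of its touching pair (117 to 133 contacts), the 5th percentile was 95 and 93 and the median 147 and 144. Calling depends on the surroundings of a bin pair, so these values do not show whether such loops would have been called in the IFNG lists.

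The bin before the TSS bin, chr11:53760001-53770000, holds nearly all of the Irf1 promoter printed above, with its GAS match. It had 3, 3, 2, 0 and 2 loops with 192, 147, 124, 0 and 222 contacts. With the second partner bin it held 80, 60 and 68 contacts without IFNG and 54 in pIL-4 + IFNG, and the IFNG list did not call it. In pIL-4 + IFNG the other loop of the promoter bin was to the touching bin upstream, with 168 contacts, which no other list called. Of the 2 IFNG lists, only the primed one thus held called loops at the promoter bin, and it is also the longer (66999 against 55011 loops). This difference in calls was not tested, and its share over the genome was not counted.

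Bin pairs that 2 lists both called were compared by a two-sided exact binomial test on their contacts, scaled by the summed contacts of all bin pairs the lists share, with Benjamini-Hochberg adjustment over the genome. For IFNG against M0[CTR], 25078 bin pairs were tested and 2 passed an adjusted p of 0.05 (0.00798%). An unadjusted p under 0.05 was reached by 419 (1.67%) over the genome and by 4 of the 31 in the locus. Both that passed lay at Irf1 and joined chr11:53750001-53760000, a bin 10 to 20 kb before the TSS that overlaps no gene, to the 2 partner bins. With the first it held 43 contacts in IFNG against 104 in M0[CTR], a log2 ratio of -1.32 (95% interval -1.87 to -0.79, adjusted p = 0.00502). With the second it held 42 against 98, a log2 ratio of -1.27 (-1.82 to -0.73, adjusted p = 0.013). The third lowest p belonged to its neighbour chr11:53740001-53750000 with the second partner bin, 36 against 59 contacts (-0.76, -1.40 to -0.13, adjusted p = 1).

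In primed cells none of 32334 bin pairs passed the exact binomial test for pIL-4 + IFNG against M2p[pIL-4] (0%), while 570 had an unadjusted p under 0.05 (1.76%), 2 of them among the 42 tested in the locus. The bin before Irf1 held 54 against 79 contacts with the first partner bin, a log2 ratio of -0.53 (-1.06 to -0.01). With the second it held 53 against 104, a log2 ratio of -0.95 (-1.46 to -0.46). Both had an adjusted p of 1 in the exact test, and the unadjusted p of the second was 8.1e-05. The third lowest p was at chr11:53730001-53740000 with the second partner bin, 53 against 74 contacts (-0.46, -0.999 to 0.07). The CTCF matches of that bin pair include a convergent pair.

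IFNG and M0[CTR] share no list with pIL-4 + IFNG and M2p[pIL-4], so the directions can be set side by side. Of 23 bin pairs of the locus called in all 4 lists, 13 were lower with IFNG in both comparisons (56.5%), against 25.7% of 16561 bin pairs over the genome. In the Irf1 stretch it was 6 of 7, in the cytokine stretch 2 of 5 and in the Slc22a stretch 5 of 11. Bin pairs of the locus share anchor bins and are not independent. Those of the Irf1 stretch all run from neighbouring bins before the gene, mostly to the 2 partner bins. The lowest ratios thus lay in the Irf1 stretch, and the difference between the stretches was not tested. The difference between the log2 ratios without and with priming was tested at each bin pair, and none of 16561 passed (481 at an unadjusted p under 0.05, 2 of them in the locus, smallest adjusted p in the locus 1). For the bin before Irf1 with the first partner bin that difference was -0.79, with an unadjusted p of 0.0309 and an adjusted p of 1.

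**Figure D3:**
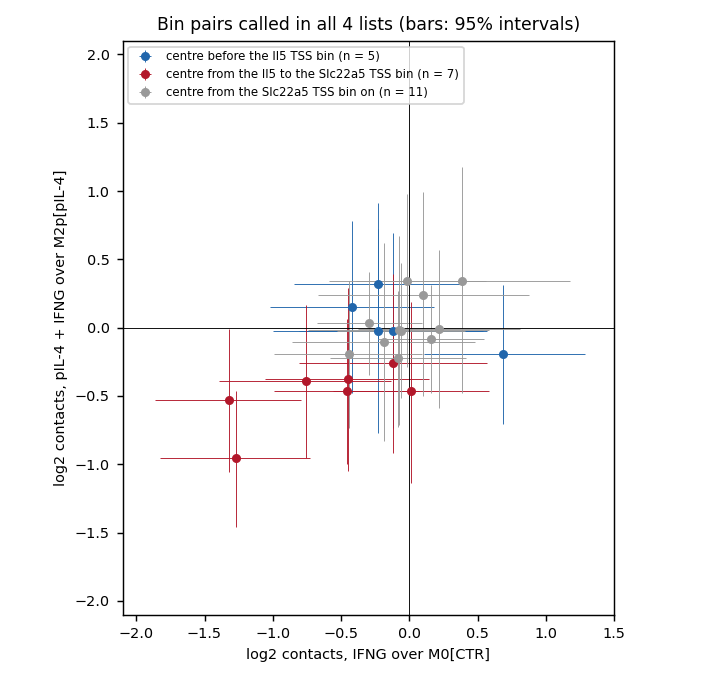
Change of contacts with IFNG at the 23 bin pairs of the locus called in all 4 lists. The x axis is the log2 ratio of IFNG over M0[CTR], the y axis that of pIL-4 + IFNG over M2p[pIL-4], bars are 95% binomial intervals, and colours give the stretch of the loop. Of the 7 red points of the Irf1 stretch, 6 lie below 0 on both axes, and the lowest reach -1.32 and -0.95.

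A fit over the 4 lists together, with terms for priming and for IFNG, let primed and unprimed lists stand in for a pair of replicates. It was added after the values were seen, and it used the quasi-likelihood test of edgeR with 1 residual degree of freedom. Of 16561 bin pairs 3 passed for the IFNG term (0.0181%), and the 2 of the bin before Irf1 were among them. Their fitted log2 changes were -0.93 with the first partner bin (adjusted p = 0.00119) and -1.10 with the second (adjusted p = 5.96e-06). At the other 21 bin pairs of the locus the adjusted p was 0.938 or higher.

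Contacts were then summed per anchor bin over the bin pairs that both lists called. For IFNG against M0[CTR], 4 of 21394 anchors passed the adjusted p in the exact binomial test (0.0187%), and 2 lay here; 401 (1.87%) had an unadjusted p under 0.05. The bin before Irf1 (chr11:53750001-53760000) summed 85 contacts in IFNG against 202 in M0[CTR] (log2 -1.29, -1.68 to -0.92, adjusted p = 1.32e-08). The second partner bin summed 190 against 288 (-0.64, -0.92 to -0.37, adjusted p = 0.0125). The first partner bin summed 141 against 214, also -0.65 on the log2 scale, and missed the threshold with an adjusted p of 0.164. The anchors share bin pairs, so these sums are not independent of one another.

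In primed cells none of 25652 anchors passed the exact binomial test (0%), with 461 at an unadjusted p under 0.05 (1.8%). The bin before Irf1 summed 173 contacts in pIL-4 + IFNG against 262 in M2p[pIL-4] (-0.58, -0.87 to -0.30), and the second partner bin 209 against 311 (-0.55, -0.81 to -0.30). Each had an adjusted p of 0.361 in that exact test. With anchors of 20 kb both passed, at -0.52 for the bins before Irf1 (257 against 373 contacts) and -0.44 for the partner bins as 1 anchor (381 against 525), each with an adjusted p of 0.0413 among 17313 anchors. The edgeR fit over 4 lists has an IFNG term shared by primed and unprimed lists, so it does not test primed cells alone. In that fit, 13 of 15333 anchors passed (0.0848%), and 3 were of this locus. They were the bin before Irf1 (-1.02, adjusted p = 3.18e-12) and the second (-0.73, 5.39e-08) and first (-0.57, 0.00263) partner bins.

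Loops that left and loops that came with IFNG were also counted over the lists. Called in all 3 lists without IFNG and in neither IFNG list were 10 bin pairs of the locus, 5.68% of its 176, against 1.09% of all bin pairs. Of these, 8 lay in the Irf1 stretch and 2 in the cytokine stretch. Called in both IFNG lists and in none of the others were 2 bin pairs (1.14%, against 2.11% over the genome), both in the Irf1 stretch. The reverse pattern was thus no more frequent here than elsewhere.

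The bin with the CTCF matches upstream of Irf1, chr11:53730001-53740000, also had long loops over the gene. It held 39, 49, 46, 37 and 38 contacts with the bin of the facing match in Slc22a5 (chr11:53870001-53880000). With the first partner bin it held 53, 57, 49, 55 and 35 contacts, and with the second 72, 87, 74, 54 and 53. The outer loop between the facing motifs had log2 ratios of -0.12 for IFNG against M0[CTR] and -0.26 for pIL-4 + IFNG against M2p[pIL-4], and its 95% Poisson intervals overlapped over the 5 lists. No CTCF match was found in the bin 10 to 20 kb before Irf1 or in the first partner bin.

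With IL-4 alone, no bin pair of the locus passed. For M2[IL-4] against M0[CTR] none of 25933 bin pairs passed the exact binomial test (0%), and 456 had an unadjusted p under 0.05 (1.76%), 2 of them among the 40 tested here. These were chr11:53740001-53750000 with chr11:53860001-53870000, 48 against 25 contacts (0.94, 0.22 to 1.70), and the bin before Irf1 with the Slc22a5 bin, 66 against 41 (0.69, 0.10 to 1.29). Both joined the upstream side of Irf1 to Slc22a5 and were higher with IL-4, each with an adjusted p of 1 in the exact test. The third lowest p was at chr11:53740001-53750000 with the second partner bin, 80 against 59 contacts (0.44, -0.06 to 0.95).

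For M2p[pIL-4] against M0[CTR], none of 28583 bin pairs passed (0%), with 445 at an unadjusted p under 0.05 (1.56%) in the exact test, 2 of them here. Lowest of the 49 tested here was the Shroom1 bin with the bin between Il4 and Il13, given above, followed by the bin before Irf1 with the first partner bin, 79 against 104 contacts (-0.44, -0.88 to -0.001), and by chr11:53740001-53750000 with chr11:53830001-53840000, 48 against 32 (0.55, -0.13 to 1.24). For M2p[pIL-4] against M2[IL-4] none of 29775 passed (0%), with 438 at an unadjusted p under 0.05 (1.47%), 1 of them here. The bin before Irf1 with the Slc22a5 bin fell from 66 to 41 contacts after washout, a log2 ratio of -0.73 (-1.33 to -0.15, adjusted p = 1 in the exact test). Its count was thus 41 both before IL-4 and after the washout, in lists of different depth. Next came chr11:53740001-53750000 with chr11:53860001-53870000, 33 against 48 contacts (-0.58, -1.27 to 0.09), and the Shroom1 bin with the bin between Il4 and Il13, 73 against 52 (0.45, -0.08 to 0.99). Among IFNG-treated cells, priming gave no passing bin pair of 28975 (0%, with 453 or 1.56% at an unadjusted p under 0.05 and 0 of them here), and the lowest p of the 38 here was at chr11:53730001-53740000 with the first partner bin, 35 against 55 contacts (-0.63, -1.29 to 0.01). It was followed by chr11:53740001-53750000 with the second partner bin, 49 against 36 contacts (0.47, -0.18 to 1.13), and by the Shroom1 bin with chr11:53580001-53590000, 58 against 44 (0.42, -0.17 to 1.02).

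Loops near each gene were counted as those with an anchor within 100 kb of its TSS. The windows of neighbours overlap, so the 9 genes share loops and are not independent. Irf1 had 25, 32, 33, 23 and 26 loops. Among the cytokine genes, Il4 had 21, 26, 30, 17 and 15, Il13 had 25, 34, 40, 23 and 22, and Il5 had 37, 41, 48, 32 and 32. In these counts, which are not scaled by the length of the lists, M2p[pIL-4] was the highest at all 4 genes and IFNG or pIL-4 + IFNG the lowest. After scaling, M2p[pIL-4] stood at -0.17 on the log2 scale against M2[IL-4] at Irf1, and at -0.018 at Il4. Rad50 had 40, 48, 51, 33 and 30 loops, and Kif3a 21, 25, 31, 17 and 15. The transporters Slc22a5, Slc22a21 and Slc22a4 had 28, 41, 39, 27 and 34, then 20, 21, 32, 16 and 27, then 25, 24, 37, 22 and 32.

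**Figure D4:**
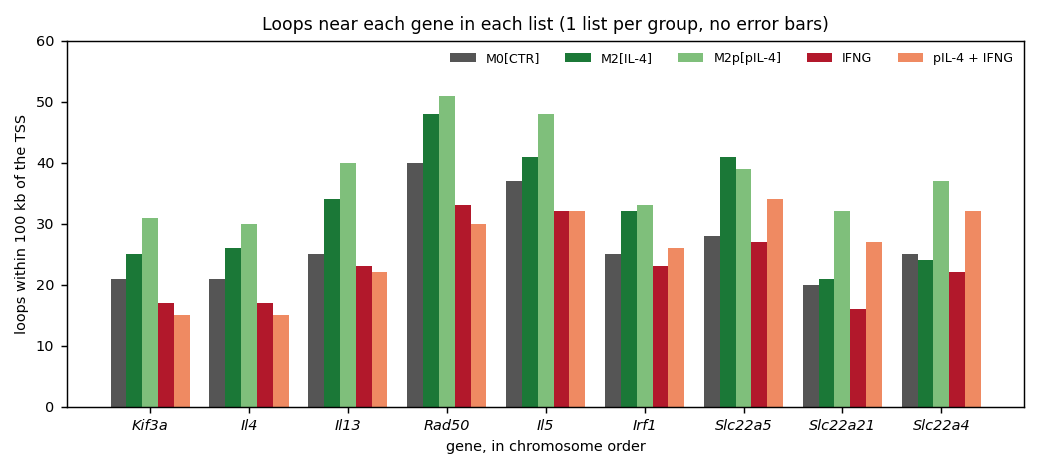
Loops with an anchor within 100 kb of each TSS, by gene in chromosome order and by list. Bars start at 0 and give the count in 1 list per group, with no error bar. The red and orange IFNG bars are below the green M2p[pIL-4] bars at all 9 genes. The gap in counts is widest at Rad50, where 30 loops in pIL-4 + IFNG stand against 51 in M2p[pIL-4], and at Kif3a 15 stand against 31.

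These counts were compared as log2 ratios after adding 1 and scaling by the length of the lists, and a gene was called at 1.5-fold. For pIL-4 + IFNG against M2p[pIL-4], 4 of the 9 genes were called lower, against 12.1% of 17280 genes. They were Kif3a (-0.98), Il4 (-0.94), Il13 (-0.82) and Rad50 (-0.73), which share most of their loops. Il5 was at -0.55, which is not called, but was called lower with windows of 50 kb (-0.94) and 25 kb (-0.77), with touching bin pairs merged (-0.73) and with lists of equal length. Irf1 was at -0.32, and the 3 transporters lay between -0.22 and -0.18. With 50 kb windows Slc22a5 (0.14) and Slc22a21 (0.016) stood above 0. The 9 genes had a median of -0.55, against 0.02 over all genes.

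In the same comparison, the loops called in the cytokine stretch went from 32 to 15. The 10 bin pairs there that both lists called had log2 ratios of contacts with a median of -0.02, from -0.20 to 0.41. These are the loops still called with IFNG, so their ratios say nothing of the contacts of the others. In the Irf1 stretch the 13 bin pairs shared by these lists had a median of -0.31. Of the 99 loops of the locus in M2p[pIL-4], 11 had no loop within 25 kb at both anchors in pIL-4 + IFNG (11.1%, Wilson interval 6.32 to 18.8%), against 11.3% of all loops of that list.

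For IFNG against M0[CTR] none of the 9 genes was called, against 16.6% of 16898 genes called higher and 14.3% lower. All 9 were below 0, from -0.35 at Slc22a21 to -0.09 at Slc22a5, with a median of -0.25 against -0.04 over all genes. None was called for M2[IL-4] against M0[CTR] (15.3% of all genes higher, 13.8% lower) or for M2p[pIL-4] against M0[CTR] (16% higher, 10.4% lower), and the medians were 0.13 and 0.15. None was called for M2p[pIL-4] against M2[IL-4] (15.7% higher, 12% lower) or for pIL-4 + IFNG against IFNG (14.2% higher, 11.5% lower), where the medians were 0.005 and -0.28. These comparisons share lists with one another, and their values are given side by side only.

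Few loops of the locus had no counterpart in the other list. In IFNG, 4 of 61 loops had no match within 25 kb in M0[CTR] (6.56%, Wilson interval 2.58 to 15.7%), against 13% of the whole list, and in pIL-4 + IFNG 7 of 73 had none in M2p[pIL-4] (9.59%, 4.72 to 18.5%), against 11.4%. In M2[IL-4] it was 5 of 81 against M0[CTR] (6.17%, 2.67 to 13.7%), with 13.6% in the whole list, and in M2p[pIL-4] 10 of 99 (10.1%, 5.58 to 17.6%), with 14.1%. M2p[pIL-4] had 11 of 99 without a match in M2[IL-4] (11.1%, 6.32 to 18.8%), with 12.9% in the whole list. In pIL-4 + IFNG 6 of 73 had none in IFNG (8.22%, 3.82 to 16.8%), with 13.5%. All 6 intervals held the share of the whole list. Among the 7 loops of pIL-4 + IFNG that lacked a match in primed cells without it, 5 lay in the Irf1 stretch, and 3 of those joined touching bins.

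Slc22a5 had loops to the upstream side of Irf1, as given above. In the stretch of Slc22a21 and Slc22a4, the most contacts summed over the 5 lists were between the CTCF matches of Slc22a4 and Pdlim4 shown above (chr11:54000001-54010000 with chr11:54050001-54060000), with 126, 124, 120, 106 and 121 contacts. Pdlim4 encodes a scaffold protein of the cytoskeleton. The same Slc22a4 bin was looped over 250 kb to the bin beside Csf2, the gene of the cytokine GM-CSF (chr11:54250001-54260000), with 53, 42, 40, 54 and 50 contacts. Both loops were called in every list, and the 95% Poisson intervals of each overlapped over the lists. The TSS bins of the transporters held few loops: none in any list at Slc22a5, 2, 1, 1, 0 and 2 at Slc22a21, and 2 at Slc22a4 in M2p[pIL-4] alone. The best partner at Slc22a21 was chr11:53930001-53940000 in M0[CTR] (52 contacts) and pIL-4 + IFNG (44), the bin beside Csf2 in M2[IL-4] (23) and the Pdlim4 bin in M2p[pIL-4] (49). At Slc22a4 it was chr11:54090001-54100000, with 47 contacts.

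A pair of lists of 20 pathway genes each set the locus beside other genes of IFNG and IL-4 signalling, and both were chosen with earlier results of these data known. Of the IFNG pathway genes, 8 of 20 were called higher for IFNG against M0[CTR] and none lower, where 16.6% of all genes were called higher and 14.3% lower. Their median log2 ratio was 0.31, against -0.04 over all genes. Gbp2 and Gbp5, guanylate-binding proteins induced by IFNG, had 11, 7, 10, 37 and 53 loops and 14, 15, 16, 47 and 66 loops. Both genes held more loops in the IFNG lists than in the others, whereas Irf1 had 25 and 33 loops in the lists before IFNG and 23 and 26 after it. In primed cells 3 of 20 genes were called higher, Gbp2 and Gbp5 among them, where 15.4% of all genes were called higher. The median log2 ratio of the 20 was 0.15 there, against 0.02 over all genes. Called lower were 2 of 20 genes (12.1% of all genes), which were Jak1 with 18 loops before and 9 after IFNG, and Ifngr1 with 28 and 17. Of the IL-4 pathway genes, 5 of 20 were called higher and 4 lower for M2[IL-4] against M0[CTR], where 15.3% of all genes were called higher and 13.8% lower. Among them Arg1, the arginase of alternatively activated macrophages, had 11, 30, 16, 15 and 24 loops.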

How the data were processed

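Hi-C was run on 10 BMDM samples in 5 groups of 2, assigned from the sample titles. The deposited loop lists, 1 per group, gave whole-number counts of contacts per pair of 10 kb bins, with no normalization apparent in the values. No list named a replicate, so the 2 replicates seem to have been pooled and their spread is unknown. The authors' methods name nf-core/hic with HiC-Pro, bowtie2 and HICCUPS at another bin size, and the submitters' processing notes add Juicer, HOMER and mm10. The caller and threshold behind the 10 kb lists are not given in the sources used here. Calling keeps bin pairs high against their surroundings, so absence from a list is not a count of 0.

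Autosomes and X were kept. Genes came from GENCODE M21, and sequence from GRCm38 and RefSeq. Contacts of bin pairs, and sums per anchor over bin pairs called in both lists, were compared by exact binomial tests with Benjamini-Hochberg adjustment at 0.05 (scipy 1.17.1, Python 3.11.15) and, over 4 lists, by edgeR 4.0.16 in R 4.3.3. Both were tested on simulated data. Loops per gene used a pseudocount of 1 and 1.5-fold, and matching 25 kb. Named were all 9 genes, the 3 bin pairs of lowest p per comparison, the bin pair of most contacts at each TSS bin, and anchors past the adjusted p; genes only placing an anchor, further bin pairs at Irf1, Il5 and the CTCF matches, and Gpr183 and Prdm10, were named after their values were seen. The IFNG pathway list holds 1 gene that is not reported here by name. The members and the gene lists were chosen with earlier results of these data known. The alternatives tried were windows of 50 and 25 kb, merged touching bin pairs, lists of equal length, other scalings, a minimum of 20 contacts, bin pairs called in all 5 lists, 20 kb anchors and other match distances.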

Additional observations from a re-analysis of the deposited data

How the results depend on the processing

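No paired analysis was possible because the loops came as 1 list for 2 replicates, and no replicate was left out for the same reason. Of 167 alternative values for 40 results, 126 kept their side of the threshold or stayed in range, and no called value changed sign. Of values not called, Slc22a5 (0.14) and Slc22a21 (0.016) turned positive with 50 kb windows for pIL-4 + IFNG against M2p[pIL-4]. Merging touching bin pairs left 18, 15, 28, 16 and 17 loops of the locus in M0[CTR], M2[IL-4], M2p[pIL-4], IFNG and then pIL-4 + IFNG, since blocks of neighbouring bin pairs become 1 loop. It also called 7 genes lower for pIL-4 + IFNG against M2p[pIL-4], 6 higher for M2p[pIL-4] against M2[IL-4], and 2 lower for IFNG against M0[CTR] and for pIL-4 + IFNG against IFNG. With 50 kb windows 2 genes were called lower for IFNG against M0[CTR] and 1 for pIL-4 + IFNG against IFNG. With 25 kb windows 1 was higher for M2[IL-4] and 1 for M2p[pIL-4] against M0[CTR], 1 lower for IFNG against M0[CTR], and 2 lower for pIL-4 + IFNG against IFNG. Without scaling by list length, 2 genes were higher for M2p[pIL-4] against M0[CTR], 2 for M2p[pIL-4] against M2[IL-4], and 1 for pIL-4 + IFNG against IFNG. The 4 genes called lower for pIL-4 + IFNG against M2p[pIL-4] were called under every alternative but Kif3a with 25 kb windows (-0.57), and Irf1 (-0.99) and Slc22a21 (-0.62) joined them only with merged bin pairs. Il5 joined them under every alternative but no scaling (-0.57).

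For the contacts in primed cells, 2 anchors passed at 20 kb (-0.52 before Irf1). In the edgeR fit over 4 lists, chosen after seeing the data, 2 bin pairs and 3 anchors passed. Its IFNG term is shared by primed and unprimed lists, so these are not results of primed cells alone. Demanding the same bins raised the loops without a match to 50.6, 50.5, 49.5, 49.2, 42.5 and 48% in the 6 comparisons in the order above, from M2[IL-4] against M0[CTR] to pIL-4 + IFNG against IFNG. Matching within 50 kb lowered it to 4.04% for M2p[pIL-4] against M2[IL-4], 0% for IFNG against M0[CTR] and 1.37% for pIL-4 + IFNG against M2p[pIL-4]. Matching within 10 kb, also added after seeing the data, gave 20.2% for M2p[pIL-4] against M2[IL-4] and 18% for IFNG against M0[CTR]. Depth limits the test: the median was 39 to 43 contacts per loop of the locus in each list, and 32 over each whole list.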
